A study of Mus musculus with 9 samples.

Results

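Genes of the aminoacyl-tRNA synthetases were examined in RNA-seq data from mouse lenses at stage E16.5. Entries of the deposited table were taken by their gene symbol, as cytosolic or mitochondrial synthetases or as the scaffold proteins that hold cytosolic synthetases together. This gave 40 genes of the 15820 entries that carry a symbol: 20 cytosolic synthetases, 17 mitochondrial synthetases and the 3 scaffold proteins *Aimp1*, *Aimp2* and *Eef1e1*. Each group had 3 libraries, and each library was made from RNA of 8 pooled lenses. The control lenses carried 1 germline knockout allele of each small Maf gene (Mafg+/-:Mafk+/-), so they were not wild type. The compound KO lenses lacked *Mafg* and kept 1 allele of *Mafk* (Mafg-/-:Mafk+/-), and the double KO lenses lacked both genes (Mafg-/-:Mafk-/-). The knockouts were present in the whole animal and not in the lens alone, and the mice were kept on an ICR background unless stated otherwise by the study. Values are CPM, reads scaled to a common library total, after normalization by the authors (normalized CPM), which do not give the depth of a library, so precision is given by the spread between libraries.

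An aminoacyl-tRNA synthetase joins an amino acid to its tRNA, the step that sets which amino acid a codon is read as. Cytosolic enzymes charge the tRNAs of the ribosomes outside mitochondria, and a second set of nuclear genes, most of them with a symbol that ends in 2, charges the tRNAs of mitochondria. The enzymes belong to class I or class II by the fold of their catalytic domain, and several cytosolic ones sit with the scaffold proteins in the multisynthetase complex. Many cytosolic synthetase genes are known targets of the amino acid response, which runs through the factor Atf4. Small Maf proteins such as Mafg and Mafk bind DNA with partners such as Nrf2, and the elements they bind include the antioxidant response element.

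The libraries were checked before the synthetases were compared. *Mafg* had values of 112.9 to 134.5 in control lenses and 10.1 to 26.2 in the 6 knockout libraries, and *Mafk* had 5.2 to 6.3 in control, 4.3 to 5.3 in compound KO and 0 to 0.6 in double KO lenses. Of 13 lens markers, 11 were in the table, among them the crystallin *Cryba1* and the fiber membrane protein *Mip*. Their summed value was 75622 to 84576 in control, 27017 to 69246 in compound KO and 45032 to 79530 in double KO lenses. *Cryba1*, the largest of them, was at 29248, 57264 and 61430 in double KO lenses. *Mip* was at 8879 to 10197 in control and 7835 to 8987 in double KO lenses. In 3 of the 11 the double KO libraries did not overlap control and were lower, against 15.8% of all entries tested without overlap in either direction. *Bfsp1* was at 4519 to 5520 in control and 2604 to 3267 in double KO lenses. *Cryab* was at 2534 to 3191 and 1571 to 1869, and *Gja3* at 10 to 10.5 and 3 to 7.7. By log2 fold change in the double KO against control, 8 of the 11 were lower and 3 higher. Compound KO replicate 1 held the lowest sum of lens markers. It also had the highest sum of 6 skeletal muscle markers at 284, against 2.3 to 3.5 in control lenses and 17.9 to 67.5 in the other 5 knockout libraries. In control lenses the muscle regulator *Myod1* was at 0 to 0.2 and *Myog* at 0.1 to 0.2. The sum of 5 mesenchyme markers was 173 to 204 in control, 181 to 2082 in compound KO and 191 to 330 in double KO lenses, and that of 6 erythroid markers was 1169 to 1638, 1424 to 2834 and 2336 to 3867. The sum of 5 neural retina markers was 90.7 to 136, 98.4 to 405 and 103 to 113, and that of 6 proliferation markers was 190 to 264, 234 to 477 and 227 to 289. Some members ran against the rest. *Pdgfra* was at 156.3 to 172.2 in control and 72 to 134.7 in compound KO lenses, where the other 4 mesenchyme markers were higher by log2 fold change. *Six3* was at 74 to 78.9 and 32.1 to 92.9, where the other 4 retina markers were higher. *Cdk1* was at 20 to 24.8 in control and 8.3 to 10.7 in double KO lenses, where the other 5 proliferation markers were higher. The part of these other cells in the results on synthetases was not tested, and in pooled tissue fewer cells of a type and less RNA per cell cannot be told apart.

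All 40 genes were detected, and all passed the filter on low values in each comparison. In control lenses the level per kb of canonical transcript ranged from 0.879 for *Gars*, the glycine enzyme, to 56.8 for *Lars*, the cytosolic leucine enzyme, with a median of 26.2 normalized CPM per kb over the 20 cytosolic genes. The 17 mitochondrial genes ranged from 0.393 for *Cars2* to 67.2 for *Lars2*, with a median of 2.83 normalized CPM per kb. The cytosolic gene had the higher level per kb in 16 of 17 pairs for the same amino acid, with a median ratio of 7.89, and *Lars2* with *Lars* was the exception with a ratio of 0.845. After *Lars2*, the highest mitochondrial levels per kb were those of *Rars2* at 10 and *Tars2* at 8.76. *Eprs* was counted in the pairs of both *Ears2* and *Pars2*, since its protein charges tRNAs of both amino acids. The table gives a value for a transcript without naming it, so the length used here may not be that of the transcript measured. For the same reason a value may not cover all transcripts of its gene.

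**Figure D1:**
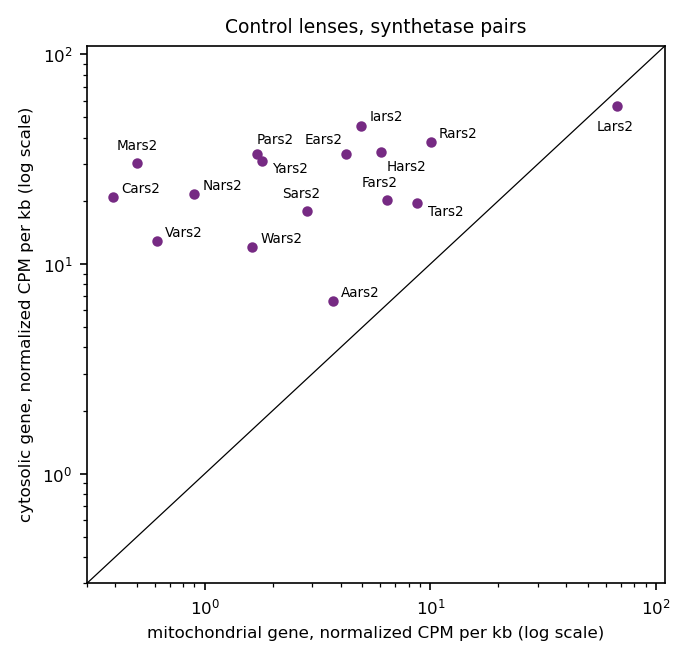
Mean level of each mitochondrial synthetase gene in control lenses (x axis) against that of the cytosolic gene for the same amino acid (y axis), both in normalized CPM per kb of canonical transcript on log scales, with 1 point for each of 16 mitochondrial genes and a line where both are equal. *Lars2* lies below the line at 67.2, and the other 15 points lie above it.

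The gene with the largest difference between genotypes was *Lars2*, which encodes the mitochondrial leucyl-tRNA synthetase and lies on chromosome 9 from 123195952 to 123291731 on the plus strand (GRCm39). *Lars2* had values of 201.9, 304.4 and 286.5 in control, 266.9, 20.2 and 78.6 in compound KO, and 20.4, 23.4 and 19.1 in double KO lenses. Every double KO library was below every control library, while in compound KO lenses replicate 1 was within the control range, replicate 2 was within the double KO range and replicate 3 was between the groups. The mean was 12.6 times lower in double KO than in control lenses, with a log2 fold change of −3.58 ± 0.17 (SE, adjusted p = 0.0021, limma). *Lars2* made up 50.2% to 62.1% of the summed value of the 17 mitochondrial genes in control lenses and 7.90% to 9.19% in double KO lenses. Without *Lars2*, the mitochondrial sum was 186 to 201 in control lenses and 190 to 238 in double KO lenses. In 1 fit of all 9 libraries, compound KO included, the call was lost (adjusted p = 0.332, limma). The study also measured *Lars2* by RT-qPCR, a separate measure of RNA, and reported it as reduced in double KO lenses.

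The mean of its cytosolic counterpart *Lars* was 1.11 times lower in double KO than in control lenses. *Lars* had values of 215.5, 236.9 and 227.8 in control, 116.5, 178.3 and 210.7 in compound KO, and 194.2, 212.4 and 204.2 in double KO lenses. All double KO values were just below those of control, with a log2 fold change of −0.15 ± 0.057 (SE, unadjusted p = 0.0362, adjusted p = 0.456, limma).

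**Figure D2:**
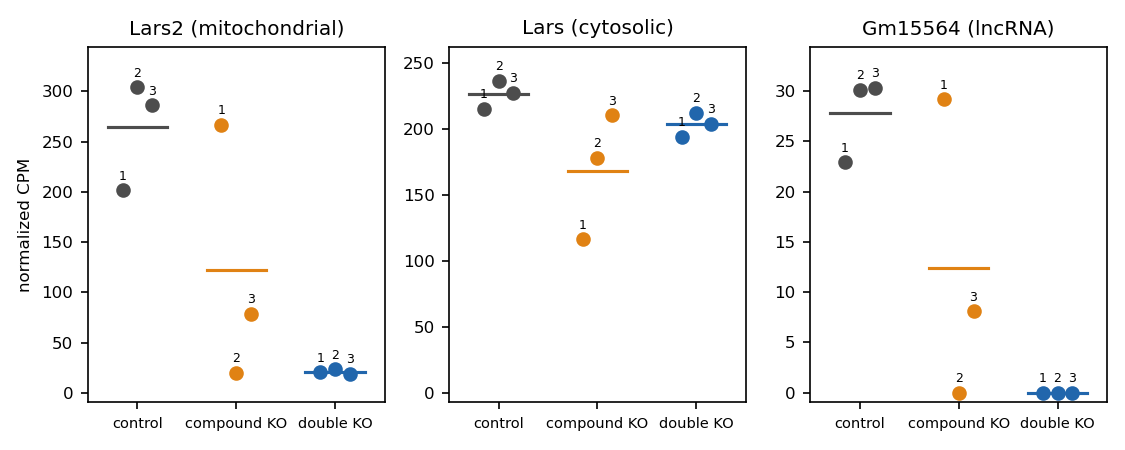
Normalized CPM of *Lars2*, its cytosolic counterpart *Lars* and the long non-coding RNA *Gm15564* (y axes, linear) in the 3 libraries of each genotype (x axis), with points numbered by replicate and a line at the mean of 3. *Lars2* and *Gm15564* are high in control libraries and compound KO replicate 1 and low in double KO libraries, while *Lars* stays between 116.5 and 236.9.

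Of 8150 entries with a symbol and a mean of at least 10, *Gm15564*, a long non-coding RNA, ran most like *Lars2* over the 9 libraries (Pearson's r = 0.994 on the log2 scale, n = 9 libraries that share genotype and scaling). *Gm15564* had values of 22.9, 30.1 and 30.3 in control, 29.2, 0 and 8.1 in compound KO, and was listed at 0 in all 3 double KO libraries, so the order of the compound KO libraries was that of *Lars2*. It lies on chromosome 16 from 35776121 to 35803658 on the minus strand, away from *Lars2*. The next most alike were *Chst2* (r = 0.976), *Dip2c* (r = 0.966), *Gtf2b* (r = 0.944) and *Plekhg3* (r = 0.931), followed by *Uchl1*, *Ppm1h*, *Mkrn1*, *Psma1* and *Ap1ar* with r between 0.893 and 0.913.

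The annotated transcripts of *Lars2* and *Gm15564* hold a stretch in common. A search of GENCODE transcripts found 75 bases with 98.7% identity and no gap, on the same strand of both transcripts. No GENCODE transcript of any other gene symbol held 60 bases of it at 90% identity. RNAs that GENCODE does not annotate were not part of this search, so it does not show that the stretch is particular to these genes. In *Lars2* the stretch lies on chromosome 9 from 123291110 to 123291184 (GRCm39), in the 3′ UTR within the last exon, and starts 367 bases past the stop codon. It is present in 3 of 18 annotated *Gm15564* transcripts. The copies differ by A56T, with the *Lars2* base first and positions counted from the first base of the stretch. The first 55 bases of the *Lars2* copy occur without a mismatch at 4 places of the genome, on chromosomes 9, 16, 19 and X. The part of *Gm15564* around the differing base is shown here because the stretch is common to both transcripts, with that base in capitals (positions 42 to 71 of the stretch).
*Gm15564*: gaacgtgagctgggTttagaccgtcgtgag
The part of this stretch, or of reads from rRNA, in the values of *Lars2* and *Gm15564* was not tested, since read positions were not analysed here. From a list of 13 entries for rRNA-derived, rRNA-like and similar non-coding RNAs, 3 were in the table, *Gm15564* itself, *Rn7sk* and *Gm26917*. In the double KO against control, *Gm15564* had a log2 fold change of −4.84 ± 0.14 (SE, adjusted p = 3.8e-04, limma). *Rn7sk* had a log2 fold change of −0.24 ± 0.17 (SE) and *Gm26917* of 0.20 ± 0.37 (SE). The values for *Gm26917* were 37.3, 42.8 and 44.5 in control and 26.1, 66.8 and 62.5 in double KO lenses.

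The promoter of *Lars2* was read from RefSeq (GRCm38.p6) to see whether it holds the core of an antioxidant response element, TGACNNNGC, searched on both strands from 250 bases before to 50 bases after the start. It held 2 matches, both on the minus strand, whose first bases lie 114 and 83 bases before the start. The 250 bases before the start are given with both matches in capitals, on the plus strand of chr9:123366677-123366926.
*Lars2*: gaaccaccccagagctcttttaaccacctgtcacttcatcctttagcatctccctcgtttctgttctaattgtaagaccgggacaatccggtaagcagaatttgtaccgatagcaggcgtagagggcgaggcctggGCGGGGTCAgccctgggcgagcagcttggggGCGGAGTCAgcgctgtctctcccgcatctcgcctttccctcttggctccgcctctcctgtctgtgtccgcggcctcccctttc
A RefSeq promoter was matched for 30 of the 40 genes, and 9 of these (30%) held the motif, against 14.0% of all 27025 genes with a promoter. Beside *Lars2* they were *Aars*, *Aars2*, *Aimp1*, *Aimp2*, *Eef1e1*, *Iars*, *Mars* and *Nars2*. A second motif, TGCTGAC, the core of a Maf recognition element, was found in none of the 30 and in 5.28% of all genes. The genes without a matched promoter included *Cars*, *Hars*, *Hars2*, *Lars*, *Nars*, *Pars2*, *Rars*, *Vars* and *Wars*. A match is a string of letters and does not show that a protein binds there.

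Between double KO and control lenses, *Lars2* alone of the 40 genes passed an adjusted p of 0.05 together with 1.5-fold (limma), against 0.361% of the 14122 entries tested. With the unadjusted p at 0.05 or below and 1.5-fold, 2 genes passed, *Lars2* and *Iars2*, against 2.83% of entries. *Iars2* passed no longer when any of the 3 control replicates, double KO replicate 1 or double KO replicate 2 was left out. At an unadjusted p alone there were 6, *Cars*, *Hars*, *Lars*, *Lars2*, *Iars2* and *Vars2*, or 4 lower and 2 higher, against 9.97% of entries. In 10 genes the double KO and control libraries did not overlap, 7 lower and 3 higher, against 15.8% of entries.

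Most cytosolic synthetase genes differed little between double KO and control lenses, with log2 fold changes from −0.19 to 0.25. The median of the 20 was −0.062, and 14 had a value below 0, beside a median of 0.011 and 47.2% below 0 over all entries tested. With each library scaled by its total only, 9 of 20 were below 0. Relative to the median of all entries, the cytosolic median was −0.073, and it was −0.12 without control replicate 1, −0.035 without control replicate 2 and −0.046 without double KO replicate 1. The 3 with an unadjusted p of at most 0.05 were *Lars*, *Cars* and *Hars*, and none of the 20 passed after adjustment (lowest adjusted p = 0.456, limma). *Cars*, the cysteine enzyme, had values of 131.4, 154.0 and 137.4 in control and 117.9, 126.7 and 124.1 in double KO lenses, without overlap (log2 fold change −0.19 ± 0.071 SE). *Hars*, the histidine enzyme, had values of 65.6, 71.6 and 66.6 in control and 57.1, 61.4 and 63.0 in double KO lenses, also without overlap (log2 fold change −0.16 ± 0.062 SE). *Iars* and *Eprs*, which lack overlap as well, had log2 fold changes of −0.090 and −0.095. *Tars*, the threonine enzyme, had values of 69.6, 81.5 and 82.5 in control and 63.7, 71.4 and 68.5 in double KO lenses, which overlap (log2 fold change −0.19 ± 0.086 SE). *Sars*, the serine enzyme, was at 46.4, 85.4 and 64.3 in control and 73.7, 74.2 and 78.8 in double KO lenses, so its control libraries spanned those of the double KO.

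The members of the multisynthetase complex were described together, as *Eprs*, *Iars*, *Lars*, *Qars*, *Mars*, *Rars*, *Kars*, *Dars* and the 3 scaffold genes. In the double KO against control, the 11 had a median log2 fold change of −0.090, or −0.020 with totals only, with 7 below 0 in both. Of the 11, 4 were without overlap, against 15.8% of all entries, and none was called after adjustment. *Aimp2*, a scaffold gene, was at 32.0, 35.4 and 31.3 in control and 29, 30 and 28.5 in double KO lenses, without overlap (log2 fold change −0.17 ± 0.068 SE, adjusted p = 0.503, limma). *Kars*, whose enzyme charges lysine tRNAs in both compartments, varied least in double KO lenses among the 20 cytosolic genes after *Iars*, with values of 101.3, 102.6 and 100.2. The 18 genes of class I had a median of −0.015 and the 18 of class II a median of −0.033, leaving out *Eprs*, whose protein joins an enzyme of each class.

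**Figure D3:**
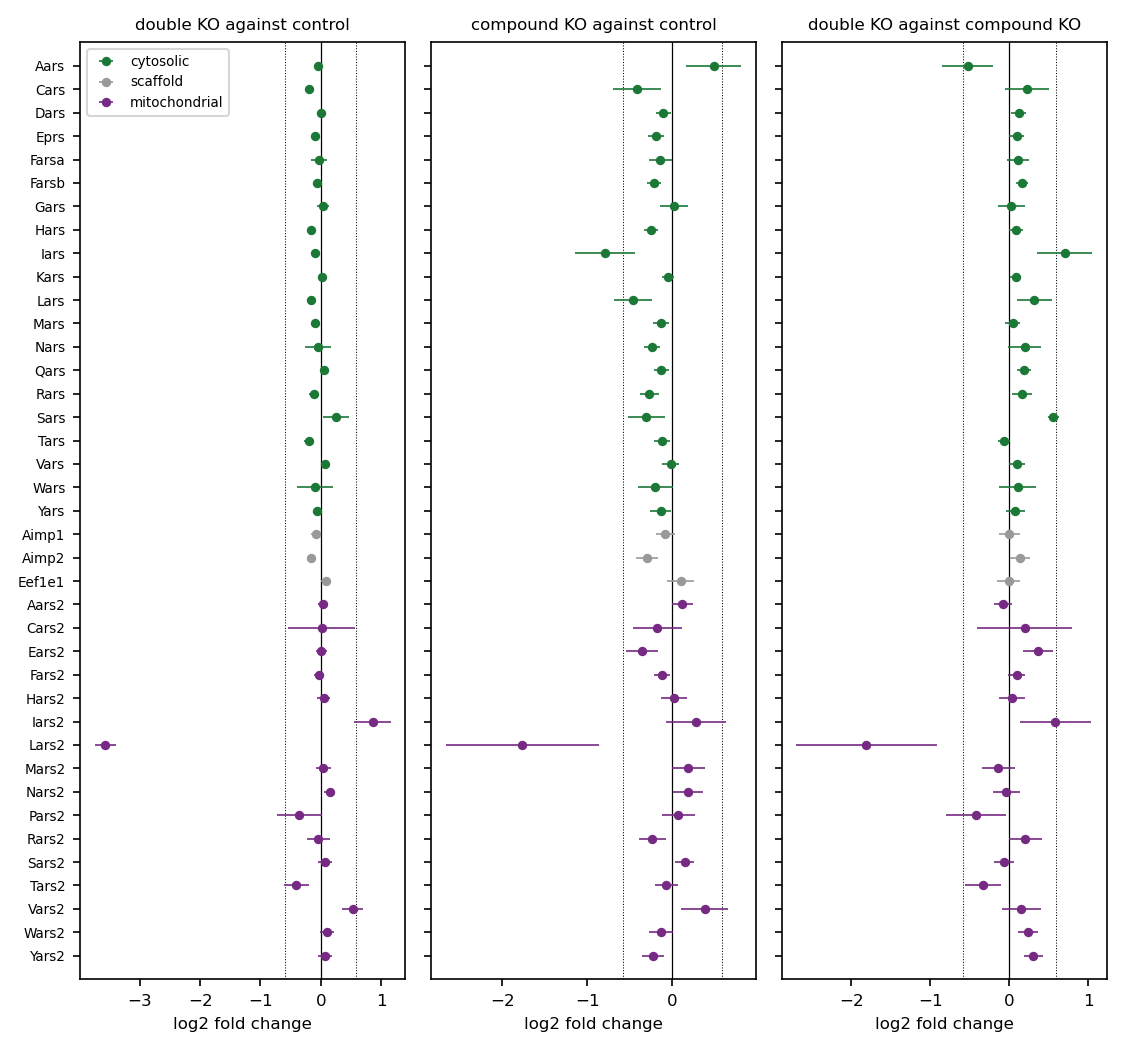
Log2 fold change (x axis, log2(value + 1) scale) of 39 genes (y axis) in each comparison, with bars for the standard error from limma and dotted lines at 1.5-fold, coloured by group. In the double KO against control, *Lars2* stands at −3.58 and the cytosolic genes lie between −0.19 and 0.25.

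The 17 mitochondrial synthetase genes had a median log2 fold change of 0.035 in the double KO against control, with 6 below 0. This median was 0.10 with totals only, 0.017 without control replicate 1, −0.0017 without control replicate 2, 0.018 without double KO replicate 1 and 0.057 without double KO replicate 3. *Iars2*, the mitochondrial isoleucine enzyme, had values of 29.9, 24.3 and 28.8 in control, 24.6, 25.9 and 59.3 in compound KO, and 64.9, 64.7 and 31.2 in double KO lenses. All double KO values were above those of control, although replicate 3 by little, and compound KO replicate 3 was at the level of the other 2 double KO libraries (log2 fold change 0.86 ± 0.30 SE, adjusted p = 0.434, limma). *Vars2*, the valine enzyme, was low throughout, with values of 2.3, 3.6 and 2.3 in control and 4.8, 3.8 and 4.4 in double KO lenses (log2 fold change 0.53 ± 0.17 SE, adjusted p = 0.405, limma). *Nars2*, the asparagine enzyme, was the other mitochondrial gene above control without overlap, at 6.9, 7.0 and 7.1 against 6.5, 5.8 and 6.4. Some mitochondrial genes differed widely among the double KO libraries themselves. *Cars2* was at 7.8, 2.8 and 0.9 and *Pars2* at 4.5, 3.4 and 1.1, so replicate 3 was the lowest for both. *Fars2*, the phenylalanine enzyme, was the steadiest in control lenses, at 13.6, 13.6 and 13.7, and had 14.5, 12.4 and 13 in double KO lenses.

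Compound KO and control lenses were compared to see how loss of *Mafg* with 1 allele of *Mafk* left differs from control. No synthetase gene was called after adjustment (0 of 40, limma), against 0% of the 14348 entries tested, and none at an unadjusted p with 1.5-fold, against 5.34% of entries. At an unadjusted p of at most 0.05 alone there were 3, *Hars*, *Farsb* and *Rars*, against 9.3% of entries. In 10 genes the libraries did not overlap, 9 lower and 1 higher, against 23.9% of entries. The cytosolic genes had a median log2 fold change of −0.17, and 18 of 20 were below 0, beside a median of 0.016 and 48.0% over all entries. With each library scaled by its total only, the median of all entries moved by 0.23, that of the cytosolic genes became 0.088, and 5 of 20 were below 0. Relative to all entries the cytosolic median was −0.18 with the authors' scaling and −0.16 with totals only. Without compound KO replicate 1, the library with the lowest lens markers, it was −0.12 relative to all entries, with 17 of 20 below 0.

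*Hars* had 52.1, 60.7 and 58.1 in compound KO lenses, below all control libraries (log2 fold change −0.25 ± 0.088 SE). *Farsb*, the beta subunit of the cytosolic phenylalanine enzyme, had 44.9, 48.9 and 48.1 in compound KO and 51.6, 56.2 and 57.9 in control lenses (log2 fold change −0.22 ± 0.081 SE). *Rars*, the arginine enzyme, had 58.2, 72.5 and 71.9 in compound KO and 78.8, 81.7 and 83.3 in control lenses (log2 fold change −0.27 ± 0.11 SE), and its value was −0.17 without compound KO replicate 1. With totals only, the log2 fold changes of *Hars*, *Farsb* and *Rars* were 0.0016, 0.034 and −0.016. Each of these adjusted p-values was 0.481 (limma). Among the mitochondrial genes the median was −0.071, with 9 of 17 below 0, and it was 0.17 with totals only and 0.023 without compound KO replicate 2. The 11 genes of the multisynthetase complex had a median of −0.14 with 10 below 0, or of 0.12 with 4 below 0 with totals only, and relative to all entries these medians were −0.15 and −0.13. *Ears2*, the glutamate enzyme, was at 9.5, 11.6 and 15.4 in compound KO and 14.6, 15.1 and 17.1 in control lenses, with an overlap (log2 fold change −0.36 ± 0.19 SE), and its value was −0.20 without compound KO replicate 1 and −0.12 with totals only. *Vars2* was at 2.7, 3.5 and 5.6 in compound KO lenses (log2 fold change 0.38 ± 0.27 SE), and its value was 0.15 without compound KO replicate 3 and 0.57 with totals only. *Lars2* had a log2 fold change of −1.77 ± 0.90 (SE, adjusted p = 0.481, limma), and this value ran from −2.67 without replicate 1 of the compound KO to −0.84 without replicate 2.

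Double KO and compound KO lenses, which differ in the second allele of *Mafk*, were compared directly, with the compound KO libraries shared with the previous comparison. None of the 40 genes was called after adjustment, against 0.0139% of the 14402 entries tested, and none at an unadjusted p with 1.5-fold, against 3.06% of entries (limma). At an unadjusted p alone there were 2, *Sars* and *Yars2*, against 4.87% of entries, and 8 genes did not overlap, 7 higher and 1 lower, against 15.6% of entries. *Sars* was at 50.1, 50.4 and 52.8 in compound KO and 73.7, 74.2 and 78.8 in double KO lenses, so the groups were well apart (log2 fold change 0.56 ± 0.071 SE, adjusted p = 0.256, limma). Its control libraries, at 46.4 to 85.4, covered both groups. *Yars2*, the mitochondrial tyrosine enzyme, was at 9.6, 10.8 and 10.1 in compound KO and 12.4, 12.1 and 13.9 in double KO lenses (log2 fold change 0.30 ± 0.12 SE, adjusted p = 0.665, limma). The cytosolic genes had a median log2 fold change of 0.11 with 18 of 20 above 0, and with totals only the median was −0.074, while that of all entries moved by −0.17. Relative to all entries the cytosolic median was 0.11, and 0.039 without compound KO replicate 1, when 6 of 20 were below 0. *Pars2*, the mitochondrial proline enzyme, was at 4.5, 4.3 and 3.2 in compound KO lenses (log2 fold change −0.42 ± 0.38 SE), and its value was −0.71 without double KO replicate 1 and −0.013 without double KO replicate 3. *Lars2* had a log2 fold change of −1.81 ± 0.89 (SE, adjusted p = 0.665, limma), which was −0.91 without compound KO replicate 1 and −2.74 without replicate 2.

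**Figure D4:**
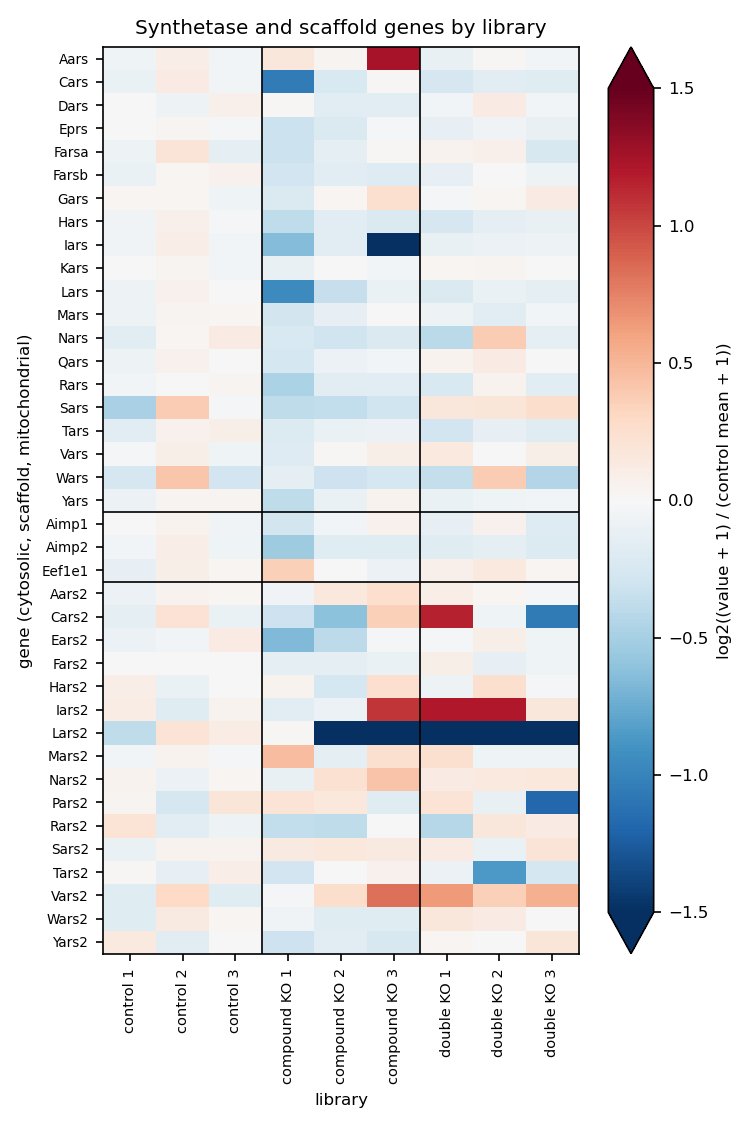
Log2 of each library's value plus 1 over the control mean plus 1 (colour, from −1.5 to 1.5, with stronger values shown at the ends of the scale) for 39 genes (rows) in the 9 libraries (columns). *Lars2* is blue in the 3 double KO libraries and in compound KO replicates 2 and 3, and *Aars*, *Iars* and *Iars2* stand out in compound KO replicate 3.

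The spread within a genotype was larger in compound KO lenses, where the median coefficient of variation of the 40 genes was 12.6%, against 6.63% in control and 6.44% in double KO lenses. In several genes 1 library stood apart. *Aars*, the cytosolic alanine enzyme, was at 36.8, 41.3 and 37.6 in control, 43.5, 39.8 and 92.2 in compound KO, and 35.7, 38.9 and 37.4 in double KO lenses. Replicate 3 of the compound KO thus had more than any other library, and the log2 fold change of 0.49 between compound KO and control lenses was 0.11 without it. *Iars*, the cytosolic isoleucine enzyme, was at 194.2, 216.1 and 195.8 in control, 128.4, 180.2 and 67.7 in compound KO, and 187.2, 189.9 and 191.6 in double KO lenses. Its lowest value was again in compound KO replicate 3, and the log2 fold change of −0.79 was −0.41 without this library. In compound KO replicate 1 the lowest values were those of other genes, with *Cars* at 67.4 against 120.6 and 142.3 in the other compound KO libraries, and *Lars* at 116.5.

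For some of these genes, an entry without a symbol ran opposite over the 9 libraries. For each of the 40 genes, the entry that left the smallest standard deviation when added to the gene was searched among the 6193 entries without a symbol. Because the best of many was taken, the ratio of the standard deviation of the sum to that of the gene was below 1 for every gene, from 0.137 to 0.617 with a median of 0.474. *Aars* had the lowest ratio, 0.137, and the next best entry for it gave 0.406. The entry that ran opposite to *Aars* was at 67.8, 70.5 and 67.3 in control, 63.5, 68.5 and 12.8 in compound KO, and 71.4, 64.9 and 68.4 in double KO lenses. It was low in the library where *Aars* was high, and the sums lay between 103.8 and 111.8 in all 9 libraries.

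*Iars2* had the next lowest ratio, 0.298. Its opposite entry was at 24.6, 28.7 and 26.3 in control, 42.0, 29.4 and 1.1 in compound KO, and 0, 0 and 23.6 in double KO lenses. The entry was at or near 0 in each library where *Iars2* was above 50, and their sum had a log2 fold change of 0.17 in the double KO against control. For *Lars2* the ratio was 0.402, above those of 10 other genes, and the entry was at 50.5, 68.7 and 54.8 in control, 33.4, 236.3 and 149.7 in compound KO, and 264.1, 288.5 and 203.8 in double KO lenses. In the double KO against control, the sum of *Lars2* and this entry had a log2 fold change of −0.23, where *Lars2* alone had −3.58. Each of these entries was picked for the smallest spread of its sum over the same libraries. Smaller differences between genotypes were thus built into the choice, and the sums do not test the fold changes of the genes. Whether these entries are transcripts of the genes they ran opposite to was not tested.

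**Figure D5:**
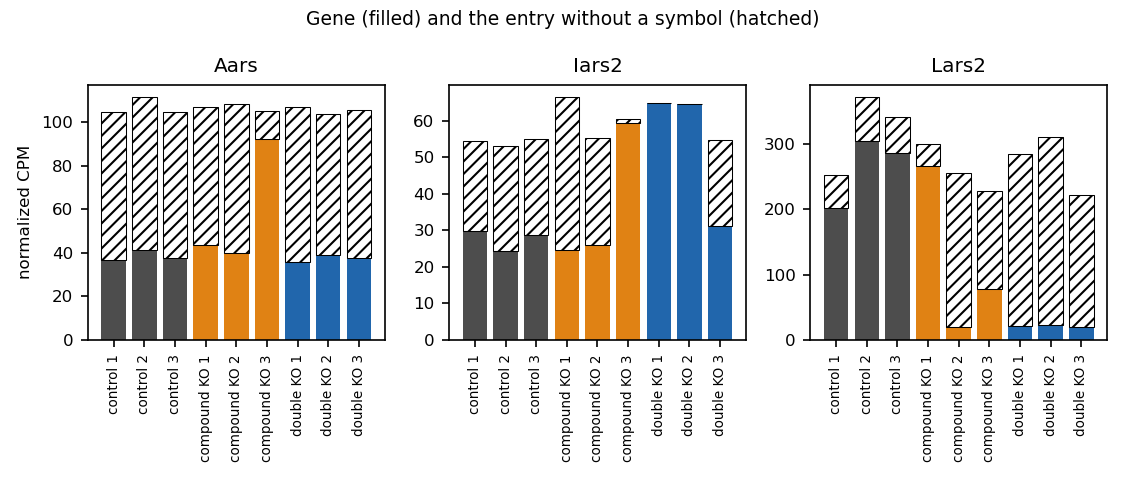
Normalized CPM (y axes, linear from 0) of *Aars*, *Iars2* and *Lars2* (filled) in each library (x axis), with its opposite entry stacked on top (hatched). The sums for *Aars* lie between 103.8 and 111.8, and those for *Lars2* between 222.9 and 373.1.

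Other genes of translation were described beside the synthetases. Of 17 tested partners of tRNA charging, such as the glutamine amidotransferase subunits *Gatb*, *Gatc* and *Qrsl1* that make glutaminyl-tRNA in mitochondria, 10 were above 0 and 7 below between double KO and control lenses, with a median log2 fold change of 0.031, and with totals only 14 were above 0 and 3 below. *Sepsecs*, which makes selenocysteinyl-tRNA, was the 1 with an unadjusted p of at most 0.05, against 9.97% of all entries (log2 fold change 0.52 ± 0.15 SE, adjusted p = 0.351, limma). *Xpot*, the exporter of tRNA from the nucleus, was at 132.6, 143.0 and 76.1 in control, 52.4, 48 and 60 in compound KO, and 81.9, 139.0 and 119.2 in double KO lenses. Its compound KO libraries lay below those of both other groups, with a log2 fold change of −1.07 ± 0.26 against control (SE, adjusted p = 0.481, limma).

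A list of mitochondrial translation had 90 tested entries, mostly mitochondrial ribosomal proteins, and included the pseudogenes *Mrpl23-ps1*, *Mrpl48-ps* and *Mrps36-ps1*. Of the 90, 48 were above 0 and 42 below in the double KO, with a median log2 fold change of 0.011, as for all entries. With totals only 60 were above 0 and 30 below. None was called after adjustment, and 4 had an unadjusted p of at most 0.05, against 9.97% of all entries, of which *Mrpl18* had the lowest adjusted p (log2 fold change 0.41 ± 0.057 SE, adjusted p = 0.085, limma). In the compound KO against control 68 of the 90 were below 0, with a median of −0.086, and with totals only 17 were below 0, with a median of 0.16. Relative to all entries these medians were −0.10 and −0.084.

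Of 18 tested genes of the amino acid response, 10 were above 0 in the double KO, with a median log2 fold change of 0.041, and with totals only 13 were above 0. None was called after adjustment. *Atf4* itself was at 148.1, 192.8 and 173.5 in control, 141.7, 172.0 and 168.2 in compound KO, and 169.6, 182.1 and 171.1 in double KO lenses. *Asns*, the asparagine synthetase and a target of Atf4, was at 16.7, 21.1 and 18.7 in control and 17.7, 18.4 and 19.4 in double KO lenses, so both overlapped control. The 3 with an unadjusted p of at most 0.05, against 9.97% of all entries, were *Ddit4*, an inhibitor of mTORC1 (log2 fold change 0.56 ± 0.11 SE), the cystine transporter gene *Slc7a11* (0.30 ± 0.071 SE) and the leucine transporter gene *Slc7a5* (−0.36 ± 0.054 SE), with adjusted p-values of 0.215, 0.268 and 0.104 (limma).

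A list of 11 genes held cytosolic translation factors and the kinase gene *Eif2ak4*. All 11 were below 0 in the double KO and in the compound KO, with median log2 fold changes of −0.055 and −0.27. These comparisons share the control libraries. With totals only, 5 and 6 of the 11 were below 0, and relative to all entries the medians were −0.059 and −0.26. None was called after adjustment, and 3 had an unadjusted p of at most 0.05 in the compound KO, *Eef1b2*, *Eif2s1* and *Eif2s3x*, against 9.3% of all entries (adjusted p = 0.481 each, limma). Of 57 annotated genes within 500 kb of *Lars2*, 15 were tested, and in the double KO against control they had a median log2 fold change of 0.0064 and none an unadjusted p of at most 0.05.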

How the data were processed

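Strand-specific paired-end reads of 9 libraries were aligned to mm39 with HISAT2 and assembled with StringTie by the authors, who imported transcript-level counts in edgeR and removed low entries. The submitters' processing notes also name Trimmomatic and Cufflinks. The deposited values are a signal, CPM normalized by the authors, with 1 decimal. They sum to 728036 in compound KO replicate 1 and to 1.13e+06 in control replicate 2. The type of normalization was not worked out here. The depth is unknown and read counts were not used here. The 22013 entries include 15820 with a symbol.

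Libraries were grouped by genotype as labelled, and no 2 held identical values. They were taken as replicates since each was a separate pool. For each pair of groups, log2(value + 1) was fitted with limma 3.58.1 (R 4.3.3, intensity trend) on entries with a symbol that reached 1 in 2 or more of the 6 libraries. P-values were two-sided and adjusted over all entries tested (Benjamini-Hochberg), and a call needed an adjusted p of 0.05 or less with 1.5-fold. An exact permutation test of 3 against 3 cannot go below p = 0.1 and was not used. The script was tested on simulated data. Fold changes on this scale understate those of low genes.

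Members and lists were chosen with earlier results of these data known. Named are *Lars2*, *Lars*, each member with an unadjusted p of at most 0.05, the 3 cytosolic and 3 mitochondrial members with the largest log2 fold change in each comparison, and the 10 entries most like *Lars2*. Other members given with values, and the search of entries without a symbol, were chosen after the values were seen. All 40 symbols were matched to GENCODE release M39 on GRCm39 (older symbols through RefSeq synonyms), and the shared stretch was found with blastn 2.17.0. Python 3.11.15 was used with numpy 2.4.6, pandas 2.3.3 and matplotlib 3.10.9. The values of 1 member are not reported here, though it is counted in every total. Replicate numbers were not used to pair the libraries in the main fits. Alternatives were other scalings, filters, pseudocounts, entry sets and fits, and each library left out.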

Additional observations from a re-analysis of the deposited data

How the results depend on the processing

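The number of synthetase genes called after adjustment between double KO and control lenses stayed at 1, *Lars2*, in all alternatives but the fit of all 9 libraries, where it was 0 (adjusted p of *Lars2* = 0.332, limma). Over the alternatives run its log2 fold change was −3.76 to −3.46. With the opposite entry added it was −0.23, an alternative chosen after seeing the data. That entry was picked for how well it offset *Lars2* in these libraries, so a smaller fold change was built into the choice. The values given below with an opposite entry added have the same limit and do not test a result. With the replicate block, 1, 0 and 0 genes were called in the 3 comparisons and *Lars2* had an adjusted p of 0.0436 (limma). Libraries with the same number correlated by −0.11 to 0.22 over 9 pairs. Pairs with different numbers were not compared, so whether the same number means a shared litter or batch was not tested. The number at an unadjusted p with 1.5-fold between double KO and control lenses was 2, it was 1 in the fit of all 9 libraries and 6 without a fold change threshold, and with each library left out it was 1 to 2, with *Iars2* lost without control replicates 1, 2 or 3 or double KO replicates 1 or 2, and *Vars2* passing without control replicate 2 or double KO replicate 2. Between compound KO and control lenses it was 0, 1 with totals only or in the fit of all 9 libraries, 3 without the threshold, and 0 to 1 with each library left out (*Lars2*, *Iars* or *Lars*, without compound KO replicate 1, 2 or 3). Between double KO and compound KO lenses it was 0, 1 with totals only, 2 in the fit of all 9 libraries, 2 without the threshold, and 0 to 2 with each library left out (*Iars* and *Lars2* without compound KO replicate 2, *Iars2* without replicate 3). The mitochondrial median between double KO and control lenses also turned, to −0.0017 without control replicate 2. With totals only, the median log2 fold changes of cytosolic and mitochondrial genes were 0.088 and 0.17 in the compound KO against control, and −0.074 and −0.14 in the double KO against compound KO, while that of all entries moved by 0.23 and −0.17. Signs turned for *Aars* in the double KO against control (0.024 with totals only, 0.0043 without control replicate 2, and −0.077 to 0.0043 over all libraries left out in turn) and in the compound KO against control (−0.0039 with the opposite entry added), for *Farsb* (0.034) and *Hars* (0.0016) in the compound KO against control with totals only, for *Iars2* in the same comparison without compound KO replicate 3 (−0.12 to 0.50 over all libraries left out in turn), and for *Lars2* in the double KO against compound KO with the opposite entry added (0.056). The causes were not tested. Depth is unknown, so for genes of low value, such as *Gars*, *Cars2* and *Vars2*, counting error could not be told from the spread between libraries.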
